A study of Mus musculus with 3 samples.

Results

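Cytochrome P450 enzymes of the mouse colon were followed through 8 genes: Cyp2c55, Cyp2c65, Cyp2c66, Cyp4b1, Cyp2d26, Cyp2d12, Cyp3a13 and Cyp2s1. They were matched by symbol among the 32285 genes of the count tables, which list 93 other Cyp symbols. The 8 genes had been picked from their unique molecular identifier (UMI) counts across the epithelial classes and libraries described here, so their levels and differences are a description and carry no test. A UMI marks 1 captured transcript, and a level is the UMIs of a gene per 1000000 UMIs of a set of cells (CPM). UMIs come from transcript 3′ ends and are not scaled by length, so a level is compared between cell sets or libraries, not between genes.

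There were 3 droplet single-cell libraries of colon cells, all from germ-free mice. The BT mutant library came from animals that had received a mutant of a strain called BT, the BT WT library from animals that had received its wild type, and the PBS library from animals given phosphate-buffered saline. The labels give no meaning for BT, no mutation, no time after colonization, and no number, age or strain of mice. Each group had 1 library, so no difference has a replicate check and every interval covers counting error only.

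P450 enzymes are haem proteins of the endoplasmic reticulum that take electrons from the reductase Por and insert oxygen into drugs, plant compounds, steroids and fatty acids. Enzymes of the mouse Cyp2c family turn arachidonic acid into epoxides and hydroxy acids, and Cyp2c55 is known as a colon enzyme of this kind. In mouse liver several of these genes respond to the nuclear receptors for foreign compounds, Nr1i2 (pregnane X receptor) and Nr1i3 (constitutive androstane receptor), and HNF4A and HNF1 factors drive many P450 promoters in liver and gut.

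Cyp2c55, Cyp2c65 and Cyp2c66 lie next to each other on the plus strand of chromosome 19 of GRCm38, at chr19:39007019-39042693, chr19:39061015-39093944 and chr19:39113898-39187072. The gaps between them are 18321 and 19953 bases, with no other coding gene in between. Cyp2d12 (chr15:82555072-82560403, plus strand) and Cyp2d26 (chr15:82790101-82794294, minus strand) belong to the Cyp2d cluster of chromosome 15. Cyp4b1 is at chr4:115624725-115647723, Cyp3a13 at chr5:137892932-137921619 and Cyp2s1 at chr7:25802475-25816913, all on the minus strand. All are annotated as protein-coding, and the positions span the whole gene with exons, introns and UTRs.

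The promoter windows of the neighbouring Cyp2c genes are shown because Cyp2c65 and Cyp2c66 are near copies there while their counts lay far apart, and that of Cyp2d26 because it holds the most searched motifs next to a start outside the Cyp2c group. Each runs from 250 bases before the RefSeq start to 50 after it, on GRCm38.p6 and in the direction of transcription. The windows are chr19:39006769-39007068, chr19:39060756-39061055, chr19:39113648-39113947 (plus strand) and chr15:82794196-82794495 (minus strand). Capitals mark the letters of a TATA box (TATAAA), an HNF4 core (CAAAGTCCA) or an HNF1 half-site (GTTAAT) on either strand.
Cyp2c55: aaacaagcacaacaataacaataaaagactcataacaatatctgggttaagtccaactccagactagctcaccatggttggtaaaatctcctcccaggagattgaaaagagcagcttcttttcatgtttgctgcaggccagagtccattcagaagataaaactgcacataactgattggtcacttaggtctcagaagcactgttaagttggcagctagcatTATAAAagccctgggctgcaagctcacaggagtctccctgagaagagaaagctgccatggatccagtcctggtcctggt
Cyp2c65: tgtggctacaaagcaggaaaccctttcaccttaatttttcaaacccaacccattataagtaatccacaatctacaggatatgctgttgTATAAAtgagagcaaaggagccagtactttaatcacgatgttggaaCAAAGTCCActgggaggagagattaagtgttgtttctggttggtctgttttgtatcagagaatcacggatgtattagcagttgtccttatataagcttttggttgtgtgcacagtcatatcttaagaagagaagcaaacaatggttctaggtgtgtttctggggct
Cyp2c66: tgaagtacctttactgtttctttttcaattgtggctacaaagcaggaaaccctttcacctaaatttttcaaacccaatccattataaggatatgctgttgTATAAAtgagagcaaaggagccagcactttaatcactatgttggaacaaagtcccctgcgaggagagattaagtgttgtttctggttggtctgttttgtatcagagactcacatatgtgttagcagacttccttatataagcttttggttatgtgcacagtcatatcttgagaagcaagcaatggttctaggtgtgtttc
Cyp2d26: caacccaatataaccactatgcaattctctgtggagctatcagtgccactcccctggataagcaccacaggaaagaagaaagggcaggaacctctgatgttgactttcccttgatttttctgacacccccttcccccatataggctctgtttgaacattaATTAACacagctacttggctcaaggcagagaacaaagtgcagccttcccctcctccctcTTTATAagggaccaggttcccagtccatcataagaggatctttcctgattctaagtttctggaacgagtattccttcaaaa

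Of the 8 genes, 7 had a window in the RefSeq table. The windows of Cyp2c65 and Cyp2c66 were 94.5% identical over 271 aligned bases, against 64.6% for Cyp2c55 and Cyp2c65 over 271 bases and 63.6% for Cyp2c55 and Cyp2c66 over 264. The HNF4 core began 116 bases before the start of Cyp2c65 and was found in 0.475% of 32851 mouse promoter windows. The aligned stretch in Cyp2c66 reads CAAAGTCCC, a single substitution, A9C, counted from 1 at the 5′ end of the 9-letter core in Cyp2c65. The letters TATAAA, present in 13.6% of all windows, began at position -29 in Cyp2c55, -162 in Cyp2c65, -150 in Cyp2c66 and -31 in Cyp2d26. Only this exact form of the TATA box was searched. The stretch tatataag, nearer the start in the windows of Cyp2c65 and Cyp2c66, was thus not marked, and the matches do not locate the working TATA box of either gene. The HNF1 half-site of Cyp2d26 began at -90 (7.10% of windows). Searches on both strands for the xenobiotic response core GCGTG (32.4% of windows), the receptor half-site AGGTCA (16.3%) and the CDX core TTTATG (11.9%) gave no match in the 7 windows, and the windows of Cyp4b1, Cyp3a13 and Cyp2s1 held none of the 6 motifs. The motif matches did not overlap, and they describe letters in these windows and nothing about binding.

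Colonocyte-like cells, the absorptive surface cells of the colon, numbered 2889 in the BT mutant, 3285 in the BT WT and 1110 in the PBS library, named from markers such as Slc26a3 and Aqp8 with all Cyp genes left out of the clustering. Their total UMIs were 20750571, 18186462 and 10997019. Most of them were shallow cells: 448, 237 and 283 held 10000 UMIs or more, and these gave 59.6%, 32.9% and 88.0% of the UMIs. Goblet-like (mucus-secreting) cells numbered 83, 767 and 114, and a deeply sequenced epithelial cluster led by Aqp4, Car2, Hao2 and Wfdc2, which met no class name, numbered 362, 232 and 154. Whole libraries held 54943483, 55436776 and 42003444 UMIs, and 6138, 7070 and 3198 cells passed the filters. At most 19 barcodes were shared by any pair of libraries. Clusters 3 and 8 scored as colonocyte but were left out for markers of fibroblasts and B cells, by limits set after the data were seen, and held 5.88%, 1.19% and 1.44% and 2.31%, 2.81% and 1.78% of BT mutant, BT WT and PBS cells.

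In brief, summed over the whole class, colonocyte-like cells of the BT mutant library had more Cyp2c55, Cyp2c65 and Cyp4b1 and less Cyp2d12 than those of the BT WT library. These sums mix cells of unlike depth and cluster. In clusters 0, 1 and 2, which both colonized libraries shared, Cyp2d12 lay close between them, and in cluster 0 Cyp2c55 was lower in BT mutant. Over the same sums the BT WT library had less Cyp2c55, Cyp2c65, Cyp2d26 and Cyp4b1 than the PBS library, and more Cyp2d12. Over the whole class Cyp3a13 and Cyp2s1 were within 2-fold in all 3 comparisons, and Cyp2c66 had no UMI in these cells.

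**Figure D1:**
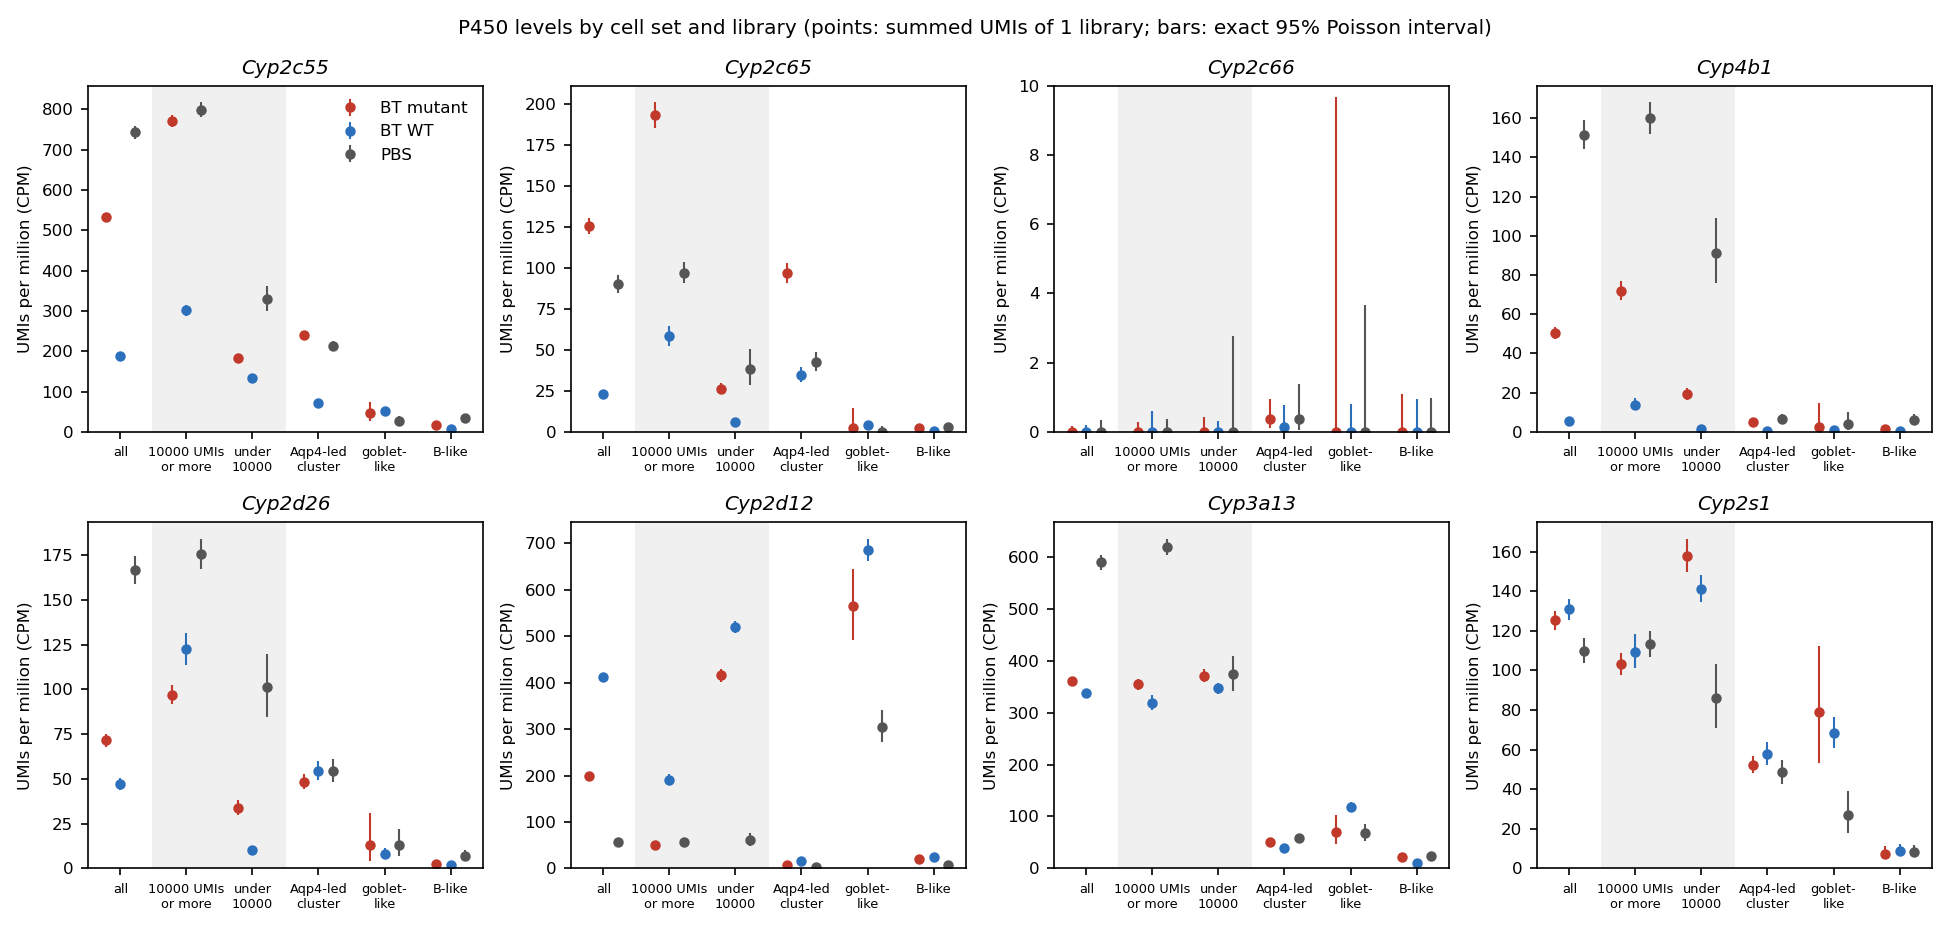
Levels of the 8 genes (CPM, vertical axis) in 6 sets of cells, with BT mutant, BT WT and PBS from left to right within a set; "all" stands for all colonocyte-like cells, the shaded sets are its cells with 10000 UMIs or more and under 10000, points are summed UMIs of 1 library, and bars are exact 95% Poisson intervals. Cyp2c55, Cyp2c65, Cyp4b1 and Cyp2d26 are lowest in BT WT among all colonocyte-like cells, Cyp2d12 is highest there, and Cyp2d12 is the gene whose goblet-like levels pass its colonocyte-like ones.

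The Cyp2c enzymes oxidise arachidonic acid. In the colonocyte-like class Cyp2c55 and Cyp2c65 were both lowest in BT WT, but PBS was highest for Cyp2c55 and BT mutant for Cyp2c65. Cyp2c55 was at 534 CPM (95% Poisson interval 524 to 544) in the BT mutant library, 189 (183 to 195) in BT WT and 743 (727 to 759) in PBS. It was thus 2.82-fold higher in BT mutant than in BT WT (exact binomial interval 2.72 to 2.94) and 3.93-fold lower in BT WT than in PBS (3.78 to 4.09). BT mutant was 1.39-fold below PBS. Over the whole class the libraries therefore stood in the order BT WT, BT mutant, PBS, with counting intervals that did not meet. That order did not hold at every depth. Among cells of 500 to 2000 UMIs BT mutant and BT WT were both at 156 CPM. Among cells of 5000 to 10000 UMIs BT mutant was at 279 CPM (258 to 300) and PBS at 227 (185 to 276).

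Cyp2c65 stood at 126, 23.2 and 89.8 CPM in BT mutant, BT WT and PBS. Its BT mutant level was 5.41-fold that of BT WT (4.88 to 6.01), and its BT WT level was 3.87-fold below PBS (3.45 to 4.35). Here BT mutant was the highest library, 1.40-fold above PBS. Among deep cells the BT mutant level was 193 CPM, against 58.3 in BT WT and 96.9 in PBS. Among shallow cells the order against PBS turned: BT mutant was at 26.3 CPM, against 38.5 in PBS, a ratio of 0.682 (0.501 to 0.944), and BT WT was at 5.98. The shallow cells differed in depth, with medians of 3076 UMIs in BT mutant and 906 in PBS. BT mutant was below PBS among cells of 500 to 2000 UMIs (25.7 against 39.9 CPM) and of 2000 to 5000 (19.4 against 52.6). Among cells of 5000 to 10000 UMIs it was at 41.5 CPM (33.8 to 50.4) and PBS at 29.2 (15.5 to 49.9).

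Cyp2c66, described as an intestinal enzyme in mice, gave 0 UMIs in colonocyte-like cells of all 3 libraries. A floor of 3 UMIs corresponds to 0.145, 0.165 and 0.273 CPM in BT mutant, BT WT and PBS. The gene was present at 4, 1 and 2 UMIs in the Aqp4-led cluster. Of 60-base windows in the last 500 bases of its transcript, 15.2% also occur in Cyp2c65 and so could not be told from it, so the zero holds for the rest of the end; Cyp2c55 and Cyp2c65 shared none with other genes.

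Cyp4b1, an enzyme that hydroxylates fatty acids and activates some toxins, had the widest spread. Colonocyte-like cells held 50.6 CPM in BT mutant, 5.50 in BT WT and 152 in PBS, from 1049, 100 and 1667 UMIs. BT mutant was 9.19-fold above BT WT (7.48 to 11.4), and BT WT was 27.6-fold below PBS (22.5 to 34.1). BT mutant was in turn 2.999-fold below PBS (2.77 to 3.24). The order BT WT, BT mutant, PBS was the same among deep cells, at 71.9, 13.9 and 160 CPM in BT mutant, BT WT and PBS, and among shallow ones, at 19.1, 1.39 and 91.3. Endothelial-like cells also held Cyp4b1, at 116 CPM in BT mutant and 94.97 in BT WT, where that class had 100 and 79 cells. Of its 3′-end windows, 6.01% occur in the pseudogene Cyp4b1-ps2 as well.

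Within the Cyp2d cluster, whose best-known human member oxidises many drugs, the members went in different directions. Cyp2d26 was at 71.5, 47.1 and 167 CPM in BT mutant, BT WT and PBS. It was 2.33-fold lower in BT mutant than in PBS (2.17 to 2.497) and 3.54-fold lower in BT WT than in PBS (3.26 to 3.84), while BT mutant was 1.52-fold above BT WT. The size of the difference from PBS changed with depth. BT WT was 1.43-fold lower than PBS among deep cells (122 against 175 CPM) and 9.95-fold lower among shallow ones (10.2 against 101). BT mutant was 1.81-fold lower than PBS among deep cells and 2.99-fold lower among shallow ones. Between the colonized libraries the direction turned with depth: among deep cells BT mutant was 1.26-fold lower (97.0 against 122 CPM) and among shallow ones 3.32-fold higher (33.8 against 10.2 CPM).

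Cyp2d12 was lowest in PBS and highest in BT WT. It was at 198 CPM in BT mutant, 412 in BT WT and 56.4 in PBS, thus 7.31-fold higher in BT WT than in PBS (6.73 to 7.94) and 3.51-fold higher in BT mutant than in PBS (3.23 to 3.83). BT mutant was 2.08-fold below BT WT (2.003 to 2.16). In deep cells BT mutant (50.4 CPM) was 1.11-fold below PBS (55.8 CPM), while in shallow cells it was 6.89-fold above it, at 416 against 60.4 CPM. In goblet-like cells Cyp2d12 stood at 565, 686 and 305 CPM in BT mutant, BT WT and PBS, above the colonocyte-like level of each library.

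Reads of the Cyp2d genes are harder to place than those of the others. Of 60-base windows near the transcript ends, 8.01% of those of Cyp2d12 and 20.4% of those of Cyp2d26 occur in other Cyp2d genes or pseudogenes. Only exact matches in the last 500 bases were searched, and how much shared reads moved the values was not tested. Cyp2d12, Cyp2c55, Cyp3a13 and Cyp2s1 also overlap other annotated genes (Gm27924, Gm23800, Gm15502, and Gm26707 with Gm45226).

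Cyp3a13, the Cyp3a gene of mouse intestine that handles drugs and steroids, was at 362 CPM in BT mutant, 338 in BT WT and 590 in PBS. BT mutant over BT WT came to 1.07 (1.03 to 1.11), and the gene was 1.75-fold lower in BT WT (1.69 to 1.81) and 1.63-fold lower in BT mutant (1.58 to 1.69) than in PBS. As a whole, shallow cells held 372, 347 and 374 CPM and deep cells 355, 320 and 620. Shallow PBS cells were themselves shallower, and among cells of 2000 to 5000 UMIs the levels were 354, 337 and 491 CPM. Cyp2s1, an epithelial P450 linked to retinoid metabolism, was at 125, 131 and 110 CPM, and BT WT over PBS came to 1.19 (1.11 to 1.28) over the whole class. Among shallow cells it was 1.83-fold higher in BT mutant (158 CPM) and 1.64-fold higher in BT WT (141 CPM) than in PBS (86.0 CPM). In goblet-like cells it was 2.54-fold higher in BT WT (68.3 CPM) and 2.94-fold higher in BT mutant (78.8 CPM) than in PBS (26.8 CPM), from 314, 30 and 27 UMIs in BT WT, BT mutant and PBS.

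Counted against all genes with at least 20 UMIs over both libraries, 7 of the 8 genes could be called in colonocyte-like cells, and Cyp2c66 could not. Since the genes had been chosen on these values, the shares of all genes are printed beside the counts and nothing is read from them. For BT mutant over BT WT, 3 genes were at least 2-fold higher (4.66% of all 12195 genes were) and 1 was at least 2-fold lower (7.13%). In BT WT over PBS 1 was higher (18.2%) and 4 were lower (9.85%), and in BT mutant over PBS 1 was higher (8.46%) and 2 were lower (7.48%). The median log2 ratio, with 10 CPM added, was 0.51, -1.59 and -0.47 in BT mutant over BT WT, BT WT over PBS and BT mutant over PBS for the 7 genes, and -0.05, 0.10 and 0.05 for all genes tested.

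**Figure D2:**
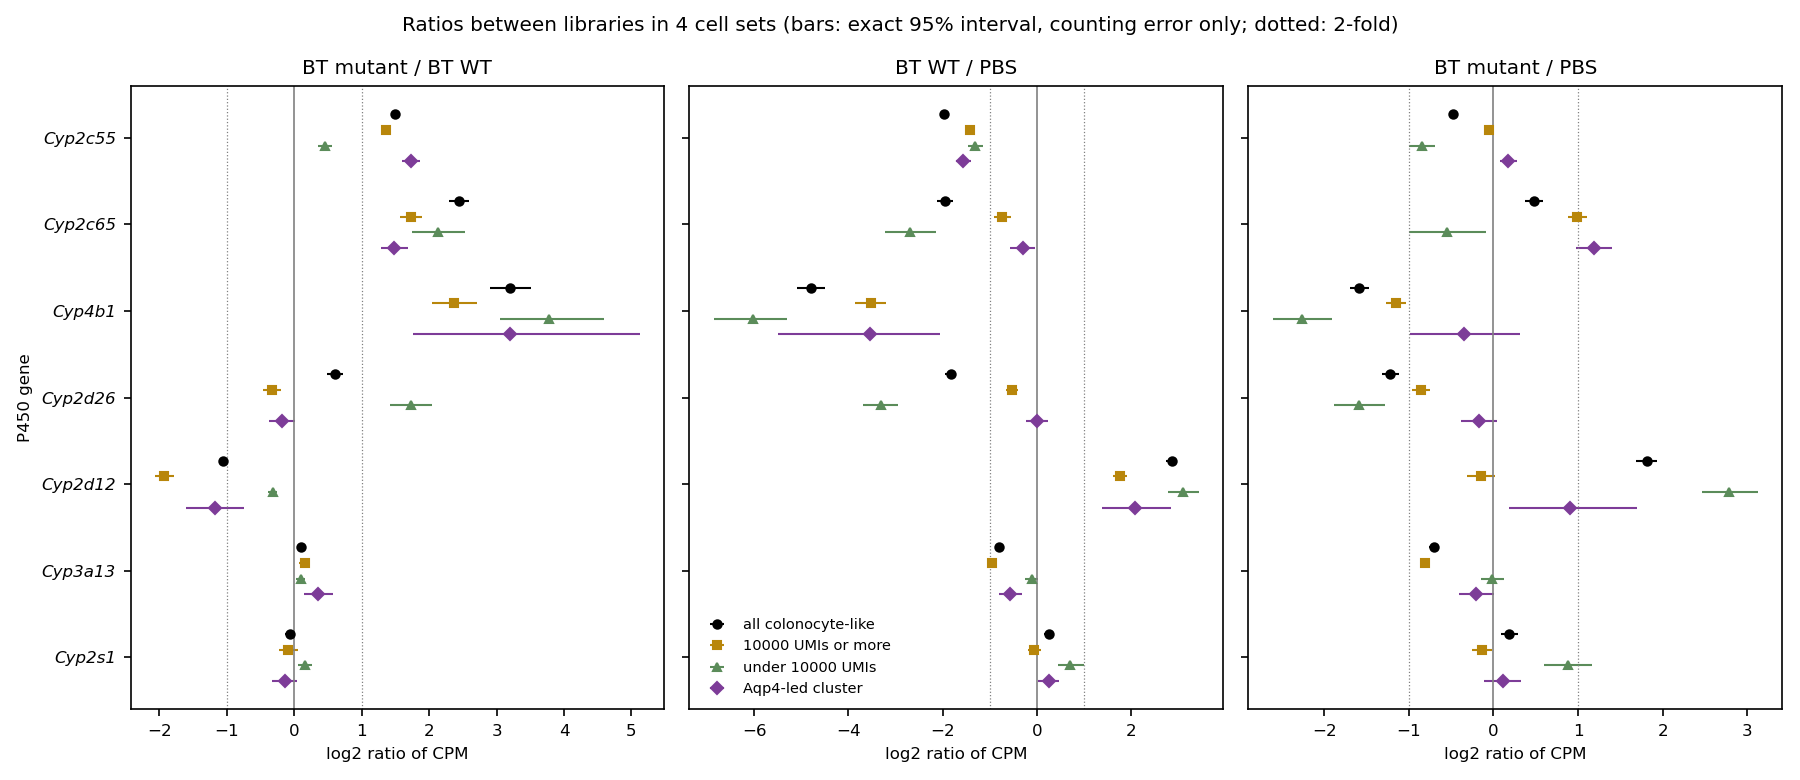
Ratios between libraries (log2, horizontal axis) for the 7 genes with UMIs in colonocyte-like cells, with all such cells, those with 10000 UMIs or more, those under 10000 and the Aqp4-led cluster from top to bottom within a gene; bars are exact 95% intervals of counting error and dotted lines mark 2-fold. In BT mutant over BT WT the 4 sets of Cyp2c65 and of Cyp4b1 lie beyond 2-fold, whereas Cyp2d26 has sets on both sides of 0.

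The calls between the colonized libraries were the same when colonocyte-like cells with 10000 UMIs or more were taken alone: Cyp2c55 (771 against 301 CPM, 2.56-fold higher), Cyp2c65 (3.31-fold) and Cyp4b1 (5.18-fold) were higher in BT mutant, and Cyp2d12 was 3.80-fold lower, with 3.01% of all genes higher and 5.47% lower. Of the cells under 10000 UMIs, those of BT mutant had Cyp2c65, Cyp2d26 and Cyp4b1 at least 2-fold higher (3.10% of all genes were) and none lower (4.82%), and Cyp2c55 came to 183 against 134 CPM, a ratio of 1.37. This stratification was chosen after the data were seen.

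Over PBS, the deep cells of BT WT had 1 gene higher (Cyp2d12, 9.55% of all genes) and 2 lower (Cyp2c55 and Cyp4b1, 5.31%). Those of BT mutant had none higher (6.45%) and Cyp4b1 lower (6.05%), with Cyp2c55 at 771 against 799 CPM, a ratio of 0.964 (0.936 to 0.994), and Cyp2c65 at a ratio of 1.99. Among shallow cells Cyp2d12 was higher in BT WT (16.0% of all genes) and Cyp2c55, Cyp2c65, Cyp2d26 and Cyp4b1 lower (14.1%). In BT mutant over PBS, shallow cells had Cyp2d12 higher (12.3%) and Cyp2d26 and Cyp4b1 lower (14.7%).

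The Aqp4-led cluster was present in all 3 libraries at similar depth, with medians of 22774, 20708 and 27017 UMIs per cell in BT mutant, BT WT and PBS. It showed Cyp2c55 at 240, 72.3 and 213 CPM, Cyp2c65 at 96.7, 34.6 and 42.4, and Cyp4b1 at 5.15, 0.561 and 6.53. BT mutant over BT WT had Cyp2c55 (3.32-fold), Cyp2c65 (2.79-fold) and Cyp4b1 (9.18-fold, interval 3.39 to 34.9, from 55 and 4 UMIs) at least 2-fold higher (2.93% of all genes) and Cyp2d12 at least 2-fold lower (2.43%). BT WT over PBS had Cyp2d12 higher (2.02%) and Cyp2c55 and Cyp4b1 lower (2.70%), and BT mutant over PBS had Cyp2c65 higher, 2.28-fold (2.72%), and none lower (3.79%). The Cyp2d12 levels behind these calls, 7.21, 16.3 and 3.84 CPM, lay below those of B-like cells (20.4, 24.3 and 6.09). Cyp4b1 lay near its B-like level in PBS (6.09), and its B-like levels in the colonized libraries were not set beside it. The B-like cells were far shallower, at medians of 2776, 2864.5 and 3502 UMIs. The comparison therefore does not decide whether this cluster expresses Cyp2d12 or Cyp4b1. Their calls here are not read as a repeat of the colonocyte-like difference. Cyp2d26 was at 48.2, 54.5 and 54.3 CPM.

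Goblet-like cells gave UMIs enough for 6 genes in the comparisons of BT WT and for 4 in BT mutant over PBS. None was at least 2-fold higher or lower in BT mutant over BT WT (3.91% and 10.9% of all genes were). Cyp2d12 (2.25-fold) and Cyp2s1 were higher in BT WT than in PBS (10.6%) and none was lower (3.66%), and Cyp2s1 alone was higher in BT mutant than in PBS (5.92%), with none lower (8.65%). Cyp2c55 was at 47.3, 50.7 and 27.8 CPM there in BT mutant, BT WT and PBS, the last of these below the 34.7 CPM of PBS B-like cells.

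The level of most of the genes moved with the depth of the cell, and depth differed between the libraries. In BT mutant, Cyp2c55 was at 156 CPM in colonocyte-like cells of 500 to 2000 UMIs and at 812 CPM in those of 40000 or more. The matching values were 156 and 331 in BT WT and 345 and 861 in PBS. Cyp2d12 ran the opposite way in the colonized libraries, with 451 CPM in the shallowest and 33.1 in the deepest cells of BT mutant and 495 and 91.4 in those of BT WT, but lay between 45.9 and 78.6 CPM at every depth in PBS. The part of depth in the differences between libraries was not tested. The smallest number of cells in any bin was 46.

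**Figure D3:**
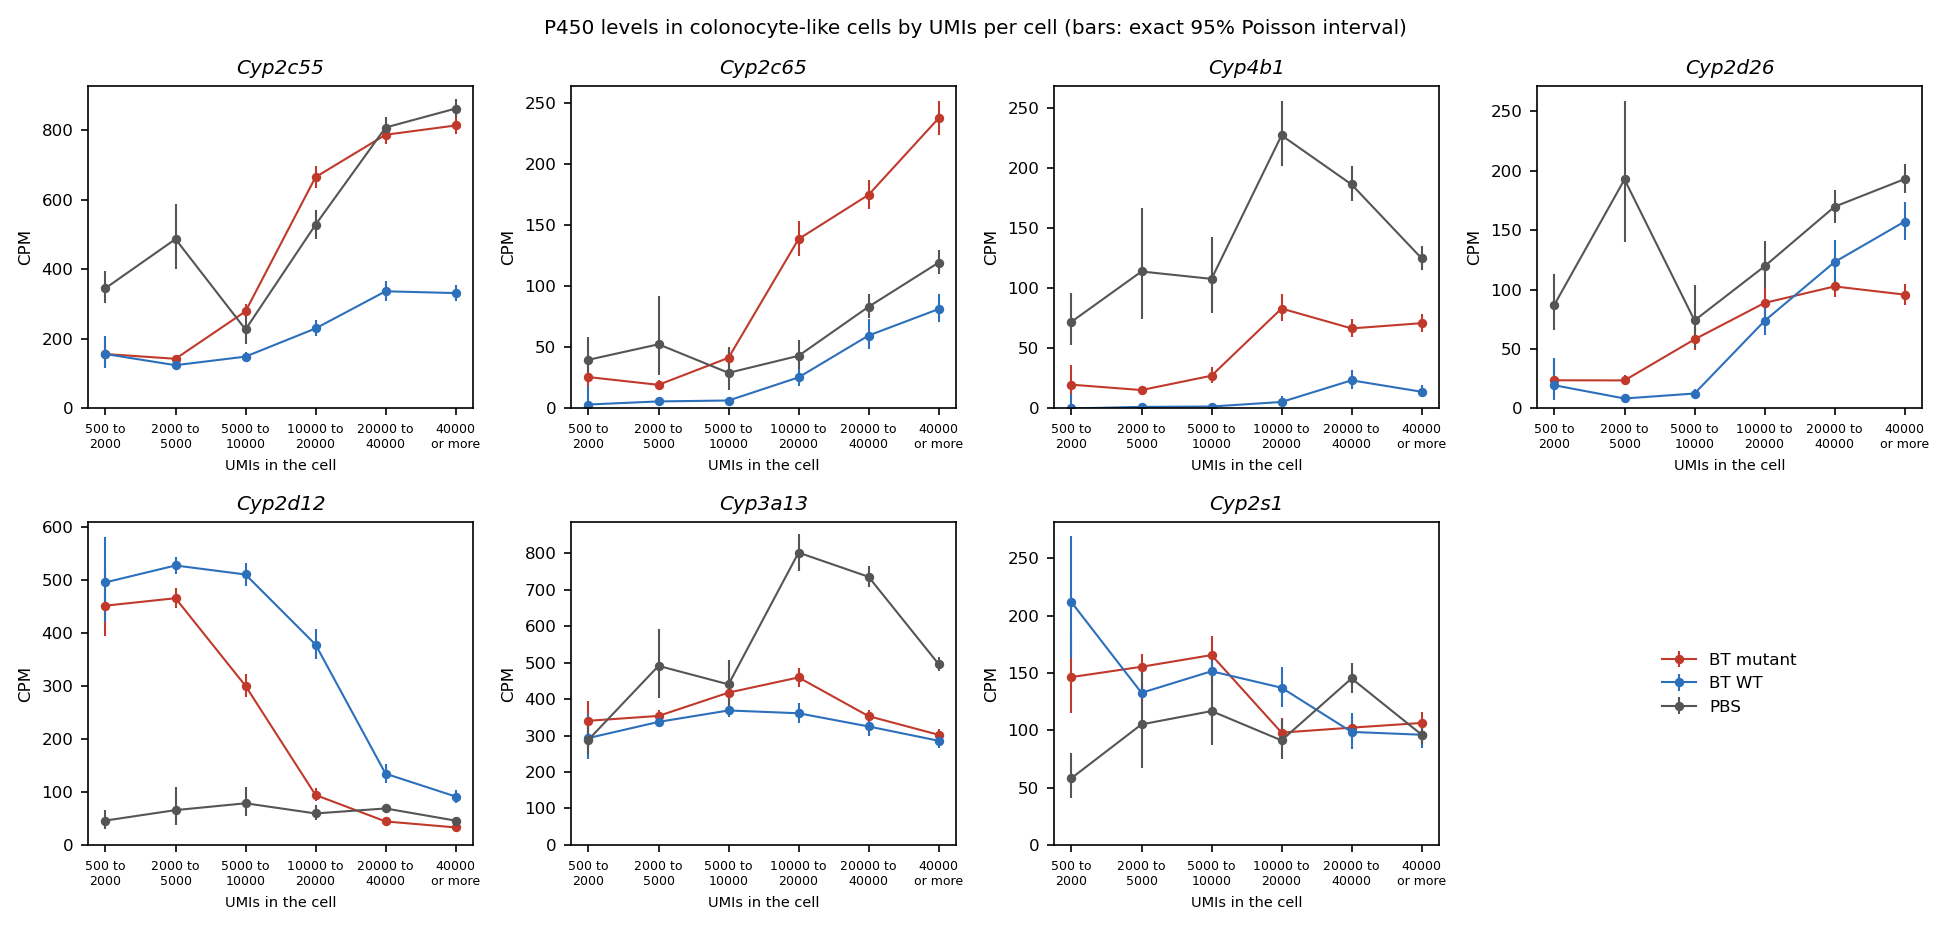
Levels of 7 genes (CPM, vertical axis) in colonocyte-like cells binned by UMIs per cell (horizontal axis), for BT mutant, BT WT and PBS; points are summed UMIs of 1 library and bars are exact 95% Poisson intervals. In the BT mutant library Cyp2c55 is higher and Cyp2d12 lower in deep cells than in shallow ones, and Cyp2d12 lies between 45.9 and 78.6 CPM at every depth in PBS.

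The libraries also filled different colonocyte-like clusters. BT mutant cells lay mostly in clusters 1 (1063 cells), 2 (1042), 4 (437) and 0 (271), BT WT cells in clusters 5 (1520), 0 (1137), 2 (298) and 4 (168), and PBS cells in clusters 15 (759) and 22 (307). Clusters made mostly of 1 library may reflect that library and not a cell type. Cluster 4, led by Car1 and Fabp2, held deep cells of both colonized libraries. There Cyp2c55 was at 788 CPM in BT mutant against 331 in BT WT (2.38-fold, 2.26 to 2.51), Cyp2c65 at 204 against 69.9 (2.91-fold), Cyp4b1 at 73.9 against 16.7 (4.43-fold) and Cyp2d12 at 37.6 against 118 (3.14-fold lower). Thus 3 genes were at least 2-fold higher in that cluster (3.22% of all genes) and 1 was lower (3.74%).

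In the shared clusters of shallower cells Cyp2d12 and Cyp2c55 lay closer between the libraries than in cluster 4, whereas Cyp4b1 did not in cluster 2, at 28.0 CPM in BT mutant against 2.85 in BT WT (9.83-fold, 3.76 to 36.6, from 147 and 4 UMIs). Cyp2d26, 1.46-fold lower in cluster 4, was at 44.2 against 22.8 CPM in cluster 2 and 15.4 against 3.55 in cluster 0, 1.94-fold and 4.35-fold higher. Cyp2d12 came to 335 CPM in BT mutant against 356 in BT WT in cluster 2, 465 against 441 in cluster 1 and 621 against 542 in cluster 0, ratios of 0.942, 1.05 and 1.15. Cyp2c55 came to 281 against 214 CPM in cluster 2, 110 against 100.4 in cluster 1 and 70.1 against 122 in cluster 0, where BT mutant was 1.74-fold lower. At least 2-fold higher were Cyp2c65 and Cyp4b1 in cluster 2 (3.12% of all genes), Cyp2d26 in cluster 1 (7.92%) and Cyp2c65 and Cyp2d26 in cluster 0 (1.85%). None was at least 2-fold lower (3.69%, 7.21% and 7.03%). The calls in clusters 1 and 0 rest on few UMIs. Cyp2d26 had 56 and 2 in cluster 1 (interval 0.621 to 19.9) and 13 and 13 in cluster 0 (1.86 to 10.2). Cyp2c65 had 8 and 13 in cluster 0 (2.68-fold, 0.963 to 6.98). In cluster 1, Cyp2c65 had 35 UMIs in BT mutant and 0 in BT WT, and Cyp4b1 30 and 0. The floor of 3 UMIs kept both from being called there. Of the 8 genes, 7, 7 and 6 had the UMIs to be called in clusters 2, 1 and 0.

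**Figure D4:**
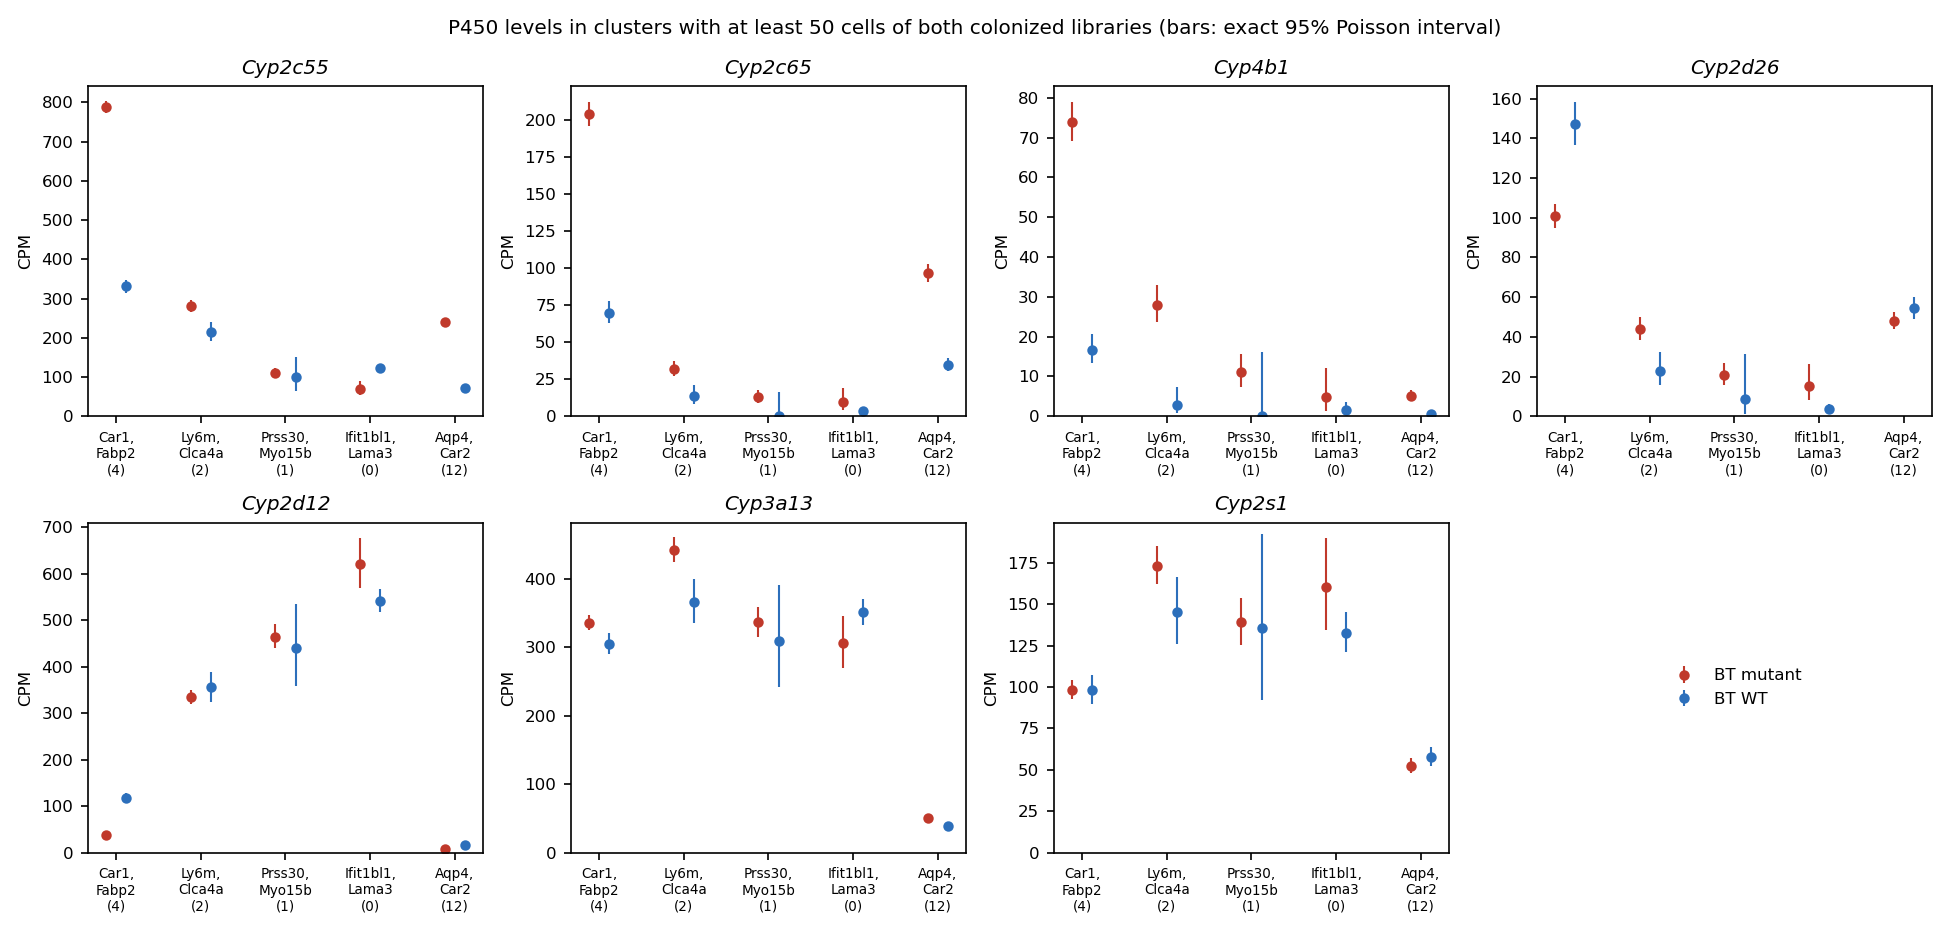
Levels of 7 genes (CPM, vertical axis) in the 4 colonocyte-like clusters with at least 50 cells of both colonized libraries and in the Aqp4-led cluster (horizontal axis: leading genes and cluster number), BT mutant left of BT WT; bars are exact 95% Poisson intervals. Cyp2c55 is higher in BT mutant in clusters 4 and 12, lies close in clusters 2 and 1, and is lower in BT mutant in cluster 0. Cyp2d12 is lower in BT mutant in cluster 4 and lies close in clusters 2, 1 and 0. In cluster 12 Cyp2d12 is also lower in BT mutant, at levels below those of B-like cells.

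Shares of cells with a UMI are given for Cyp4b1, and stood in the same order of libraries as its levels. Cyp4b1 was seen in 13.4% of colonocyte-like cells in BT mutant (95% Clopper-Pearson interval 12.2 to 14.7), 1.83% in BT WT (1.40 to 2.34) and 27.2% in PBS (24.6 to 29.9). With each cell thinned to 1000 UMIs, which left 2795 of 2889, 3128 of 3285 and 647 of 1110 cells, the shares were 2.72%, 0.192% and 12.4%. Among B-like cells, which should lack the enzyme, 0.454%, 0.0769% and 2.09% had a UMI of it, at median depths of 2776, 2865 and 3502 UMIs, against 3374, 3939 and 1212 in colonocyte-like cells. B-like cells, which give the background of free RNA and of doublets together, held 17.4, 8.19 and 34.7 CPM of Cyp2c55 and 20.4, 24.3 and 6.09 CPM of Cyp2d12, each below the colonocyte-like level of the same library. In PBS, Cyp4b1 reached 23.6 CPM in T-like and 31.3 CPM in macrophage and monocyte-like cells, also below the 152 CPM of colonocyte-like ones.

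Other features of the libraries moved with these differences, and their part in them was not tested. Hoxb13, a gene of the distal colon, was at 111, 223 and 124 CPM in colonocyte-like cells of BT mutant, BT WT and PBS, and at 66.8, 191 and 156 in the Aqp4-led cluster. The 8 fat-cell markers summed to 29.7, 14.0 and 214 CPM, with 0, 1 and 0 of them at 0 (Plin1 in BT WT), and the 10 B-cell markers to 18.2, 15.8 and 66.5 CPM, with none at 0. In shallow cells alone the fat-cell markers summed to 39.9, 14.8 and 937 CPM and the B-cell markers to 21.8, 17.8 and 289. The 11 fat cell-like cells of PBS gave 1 UMI of Cyp4b1, 1.34 CPM, and its B-like cells had 305 CPM of fat-cell markers with 6.09 CPM of Cyp4b1. Of 10 hepatocyte markers 6, 7 and 5 were at 0, Alb among them in both colonized libraries, and the list summed to 3.23, 2.64 and 19.6 CPM. The 14 goblet markers summed to 317, 2168 and 2202 CPM in the colonocyte-like class, the nuclear RNA Malat1 was at 41877, 69334 and 60310 CPM, the 5 red-cell markers summed to 161, 142 and 3.82 CPM, and the 20 colonocyte markers to 37282, 30657 and 45325 CPM, the order of libraries that Cyp2c55 had. The median share of mitochondrial UMIs was 18.5%, 18.2% and 9.65%.

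Among the 93 other Cyp genes, 37 had no UMI in colonocyte-like cells and 12 reached 20 CPM in a library. The most abundant were Cyp4f14, a fatty acid and leukotriene hydroxylase, at 529, 476 and 648 CPM in BT mutant, BT WT and PBS, and Cyp2d34, the neighbour of Cyp2d12, at 633, 710 and 306. Cyp2d34 was 2.07-fold higher in BT mutant and 2.32-fold higher in BT WT than in PBS, the direction of Cyp2d12, though 16.3% of its 3′-end windows occur in other Cyp2d genes. Cyp2d10 (147, 167 and 238 CPM), Cyp4f16 (79.6, 124 and 161) and Cyp2d9 (82.8, 78.2 and 49.9) followed. Cyp51, which makes sterols, was 2.39-fold higher in BT mutant than in BT WT and 5.34-fold lower in BT WT than in PBS, and Cyp27a1, a sterol hydroxylase of mitochondria, was 3.19-fold lower in BT mutant than in BT WT.

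Of the other Cyp genes with 20 UMIs, 4 of 21 were at least 2-fold higher and 6 lower in BT mutant over BT WT, 4 of 28 higher and 12 lower in BT WT over PBS, and 3 of 26 higher and 12 lower in BT mutant over PBS. Beside these counts and those of the lists that follow stand the shares of all genes at least 2-fold higher and lower, 4.66% and 7.13% in BT mutant over BT WT, 18.2% and 9.85% in BT WT over PBS, and 8.46% and 7.48% in BT mutant over PBS. Their median log2 ratios were -0.03, -0.28 and -0.28, beside -0.05, 0.10 and 0.05 for all genes.

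Of 16 genes for electron donors and haem supply, 0 were higher and 1 was lower in BT mutant over BT WT, 1 was higher and 4 lower in BT WT over PBS, and 0 were higher and 1 lower in BT mutant over PBS. The reductase Por itself was at 127, 126 and 189 CPM, and Cyb5b, a membrane cytochrome that can pass electrons to P450 enzymes, at 135, 104 and 194. Hmox1, which breaks down haem, was at 2.51, 3.85 and 80.0 CPM, 31.9-fold lower in BT mutant and 20.8-fold lower in BT WT than in PBS. Fdx1, the electron carrier of mitochondrial P450 enzymes, was at 72.1, 38.1 and 92.6 CPM.

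Receptors and factors known to regulate P450 genes, 27 of 30 with enough UMIs, had 0 higher and 1 lower in BT mutant over BT WT, 5 higher and 1 lower in BT WT over PBS, and 2 higher and 0 lower in BT mutant over PBS. Klf4, a factor of differentiated surface cells, was at 1742, 1557 and 1473 CPM, and Cdx2, the intestinal identity factor, at 123, 72.5 and 67.3. Dbp, a clock-output factor that drives P450 genes in mouse liver, was at 142, 155 and 34.3 CPM, 4.14-fold higher in BT mutant and 4.51-fold higher in BT WT than in PBS.

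Among the targets of the xenobiotic receptors that could be called, none was at least 2-fold higher in either comparison with PBS. Cyp1a1, Ahrr, Aldh3a1 and Cyp3a11 had 0 UMIs in colonocyte-like cells. Cyp1a2, Cyp1b1 and Cyp2b10 had no more than 2 in any library, so these genes could not be called. Among 10 aryl hydrocarbon receptor targets 4 could be called, with 2 higher and 0 lower in BT mutant over BT WT and 0 higher and 2 lower in each comparison with PBS. The 2 lower were Gsta1 and Nqo1, while Tiparp and Ugt1a6a stayed within 2-fold of PBS. Gsta1, a glutathione transferase of that list, was at 37.2, 5.55 and 963 CPM, 25.9-fold lower in BT mutant and 173-fold lower in BT WT than in PBS. Tiparp, which tones down that receptor, was at 33.3, 52.6 and 40.1 CPM. Of the pregnane X and constitutive androstane receptor targets, 9 of 12 could be called, with 1 higher and 1 lower in BT mutant over BT WT, 0 higher and 5 lower in BT WT over PBS, and 0 higher and 4 lower in BT mutant over PBS. Aldh1a1, a retinal dehydrogenase, was at 444, 100.2 and 1222 CPM, 4.42-fold higher in BT mutant than in BT WT and 12.2-fold lower in BT WT than in PBS, and the drug pump Abcb1a was at 912, 1351 and 1696 CPM.

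Enzymes that act beside or after P450 enzymes had more lower than higher calls against PBS. Of oxidoreductases 7 of 24 were higher and 1 lower in BT mutant over BT WT, 0 higher and 18 lower in BT WT over PBS, and 0 higher and 12 lower in BT mutant over PBS, where Cbr3, a carbonyl reductase, was at 30.6, 15.3 and 780 CPM and the carboxylesterase Ces2c at 546, 682 and 1471. Of conjugating enzymes 5 of 24 were higher and 1 lower, 0 of 25 higher and 15 lower, and 1 of 25 higher and 10 lower in BT mutant over BT WT, BT WT over PBS and BT mutant over PBS. Mgst3, a membrane glutathione transferase, was at 1563, 481 and 1822 CPM, 3.25-fold higher in BT mutant than in BT WT.

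Of 18 arachidonic acid and epoxide genes, 2 of 8 tested were higher and 0 lower, 1 of 11 higher and 9 lower, and 0 of 10 higher and 5 lower in the same order of comparisons. Hpgd, which inactivates prostaglandins, was at 623, 230 and 747 CPM, 2.71-fold higher in BT mutant than in BT WT, and Ptgr1, the next enzyme of that route, at 1.35, 0.715 and 66.2. Drug transporters had 0 of 10 higher and 2 lower, 1 of 11 higher and 4 lower, and 0 of 11 higher and 3 lower, with Abcc3 at 128, 73.9 and 172 CPM, Abcc2 at 0.916, 2.58 and 57.1, and Abcc4 at 0.289, 0.385 and 75.4. PBS cells stood above both colonized libraries for Abcc2, Abcc4, Ptgr1, Cbr3, Gsta1 and Hmox1.

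**Figure D5:**
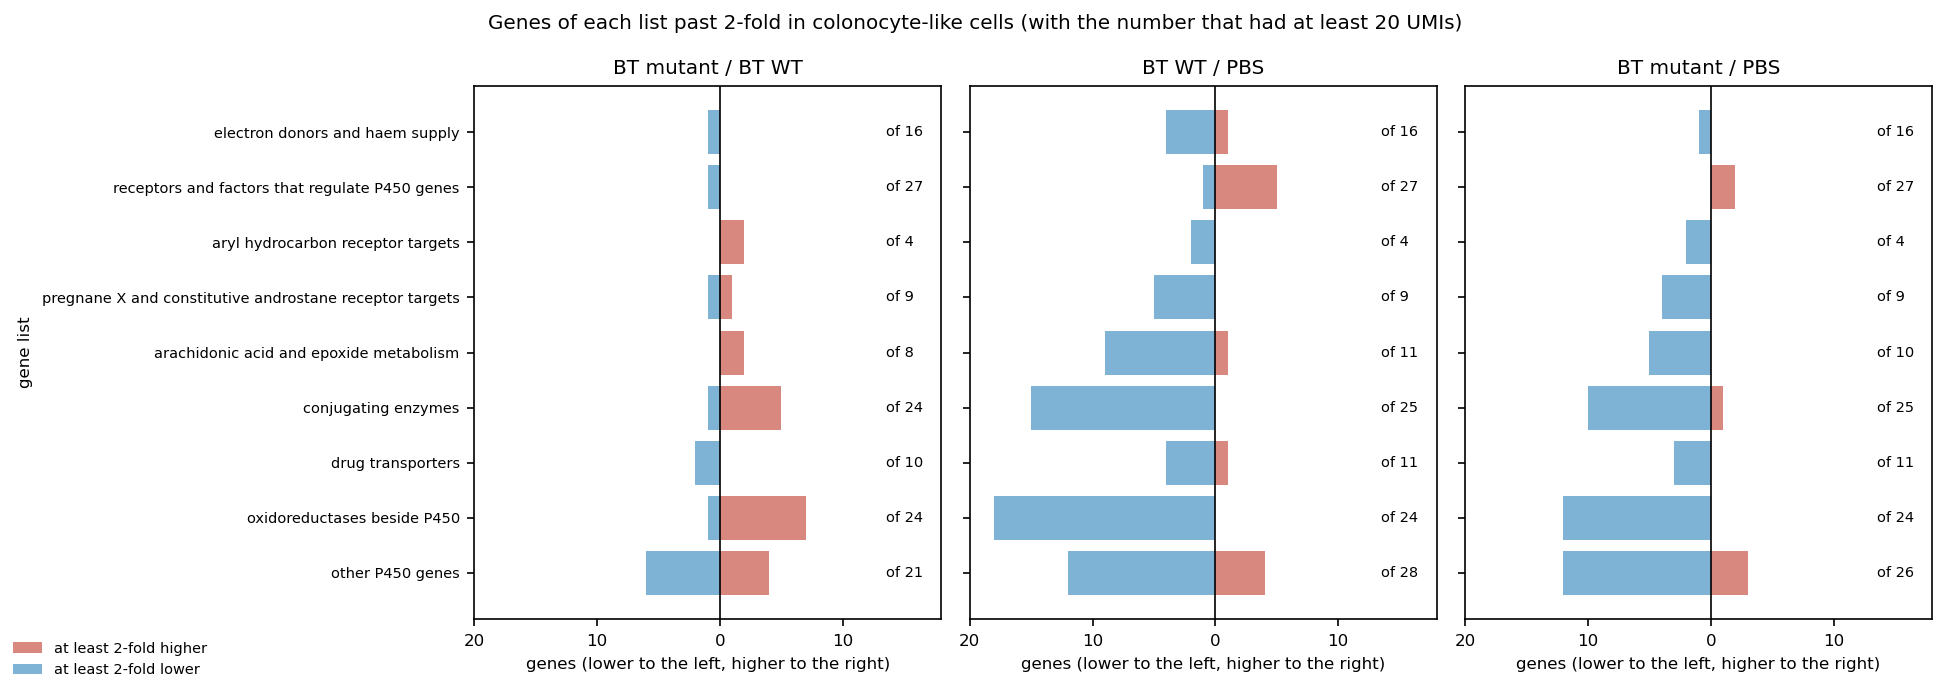
Genes of each list at least 2-fold higher (right of 0) or lower (left of 0) in colonocyte-like cells, in the 3 comparisons, with the number that had at least 20 UMIs at the right of each row; horizontal axis: number of genes. Lower calls outnumber higher ones for oxidoreductases and conjugating enzymes in both comparisons with PBS, with 18 of 24 and 15 of 25 lower in BT WT over PBS.

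Across 22 sums of a cell class in a library with at least 50 cells, the genes most like each P450 were found by Pearson's r of log2(CPM + 10) over 12836 genes. The points share libraries and the difference between epithelial and other cells, so the values are a description. Nearest to Cyp2c55 were Mep1b (r = 0.974), a brush-border protease, and Ces2e (0.970), a carboxylesterase, and nearest to Cyp2c65 were Slc3a1 (0.956) and Cyp4f40 (0.952). Cyp2d26 was most like Slc35d1 (0.963) and Slc51b (0.959), a subunit of the bile acid exporter, and Cyp4b1 most like Nqo1 (0.919), a quinone reductase, and Rnf152 (0.844). Cyp2d12 was most like Il22ra1 (0.952), the epithelial receptor chain for interleukin 22, and 2210407C18Rik (0.949). Cyp3a13 was most like Cs (0.968), the citrate synthase, and Cyp2d10 (0.967), and Cyp2s1 like Plekhg6 (0.969) and Pard6b (0.957).

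The filter on cells, at most 25% mitochondrial UMIs, left the order of the libraries the same on both sides of its limit for Cyp2c55 and Cyp2d12. These sums took barcodes of every class, not colonocyte-like cells alone, and the mix of classes at each side was not compared. Barcodes of 20% to 25% against those of 25% to 30% held Cyp2c55 at 301 and 293 CPM in BT mutant, 141 and 123 in BT WT, and 464 and 556 in PBS. For Cyp2d12 the values were 274 and 297, 481 and 455, and 79.6 and 58.2 CPM.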

How the data were processed

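Each of the 3 libraries (1 per group, Chromium 3′ v3 kits per the labels' protocols) was deposited as a raw matrix of UMI counts, with genes as rows and barcodes as columns. Per the file headers, Cell Ranger 5.0.0 wrote them; mm10 and STAR are named in the submitters' processing notes. How barcodes were called as cells, and whether doublets had been removed, is not stated. The members and lists were chosen with earlier results of these data known.

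Barcodes with at least 300 genes and at most 25% mitochondrial UMIs were kept (74.9%, 80.1% and 72.3% in BT mutant, BT WT and PBS). The libraries were clustered together in scanpy 1.11.5 (2000 variable genes, 30 components, 15 neighbours, Leiden resolution 1.0) without Cyp, mitochondrial, ribosomal, antigen-receptor and sex-linked genes. Clusters were named by 22 marker sets, with a mean log2 score of at least 1.5, at least 3 detected markers and fewer than 2 markers of another class among the 10 leading genes. Epithelial clusters with raised markers of another compartment (score 1.5) stayed unnamed. These limits were set after the clusters had been seen, and fat-cell markers were then left out of that last check, since colonocyte-like and B-like cells of PBS both carried them. Scrublet called 103, 3 and 0 cells as doublets and so did not work in BT WT and PBS; doublets remain.

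UMIs were summed per class and library into CPM. Intervals are exact at 95% (Poisson for levels, conditional binomial for ratios, Clopper-Pearson for shares, from scipy 1.17.1). A gene was called with at least 20 UMIs over both libraries and a 2-fold difference, with 3 UMIs in place of 0; a class or cluster needed 50 cells. Intervals were run on counts simulated with Poisson error alone, the error they assume, so this says nothing of variation between cells, animals or libraries. Named genes of a list were its most abundant gene and that of the largest log2(CPM + 10) ratio with at least 30 UMIs, in each comparison, so low genes with larger plain ratios are not named; of other Cyp genes the 5 most abundant were added, and 2 most similar genes were named per member. Outside this rule, the callable aryl hydrocarbon receptor targets and some receptor targets with too few UMIs were also named. Positions and transcript ends come from GENCODE vM21 and promoters from RefSeq. Alternatives were other filters, scalings, clusterings, cell sets and thresholds.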

Additional observations from a re-analysis of the deposited data

How the results depend on the processing

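No paired analysis was possible because each group had 1 library. In all, 23 alternative settings were run, and 114 of 130 counts of called genes stayed within 1.5 times their reported value. Of the 237 values that the 12 ratios past 2-fold took under them, 234 kept their direction. Of 413 single ratios, 216 stayed inside their 95% interval, 194 moved past it and 3 of those past 2-fold turned sign. Cyp3a13 in BT WT over PBS, -0.79 on the log2 scale, came to -2.51 with the mean over shared clusters (54.1 CPM in BT WT, 355 in PBS) and -1.01 with median-ratio scaling, past 2-fold in both. For BT WT and PBS that mean was cluster 15 alone, with 57 and 759 cells. Its BT WT cells held 73934 UMIs in all, so the value of -2.51 rests on few UMIs. The count of genes lower in BT mutant over BT WT (1, Cyp2d12) came to 0 with median-ratio scaling, equal weight per cell, cells thinned to 1000 UMIs, a mean over shared clusters, clustering with Cyp genes, a fold of 3 and cells under 10000 UMIs. With the mean over shared clusters Cyp2d12 had a log2 ratio of 0.0021 in place of -1.02, at 365 CPM in BT mutant and 364 in BT WT. In cluster 15 alone, the count higher in BT WT over PBS came to 0. The count lower in BT mutant over PBS (2) came to 1 with a mitochondrial limit of 10%, all epithelial cells and cells of at least 10000 UMIs, and to 0 with a fold of 3 and in the Aqp4-led cluster. The count lower in BT WT over PBS (4) came to 2 in cells of at least 10000 UMIs and in the Aqp4-led cluster. In cells of at least 10000 UMIs the count higher in BT mutant over PBS came to 0 and the log2 ratio of Cyp2d12 turned to -0.13, and in the Aqp4-led cluster that of Cyp2d26 in BT WT over PBS turned to 0.0036. The cause of each was not tested. The Aqp4-led cluster and the cells of at least or under 10000 UMIs were chosen after the data were seen. Median-ratio scaling moved all log2 ratios by 0.10, -0.22 and -0.13 in BT mutant over BT WT, BT WT over PBS and BT mutant over PBS. BT mutant and PBS shared no cluster with 50 cells each, so that mean gave no value there.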

Other observations

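A secretory cluster led by Spink4, Mptx1, Agr2, Pyy and Gcg, which met no class name, held 87, 90 and 77 cells of BT mutant, BT WT and PBS at median depths of 21147, 33362.5 and 35165 UMIs. Cyp2c55 was at 11.8, 3.11 and 24.2 CPM there and Cyp2d12 at 4.62, 11.6 and 2.20. Each lay below the level in B-like cells of the same library (17.4, 8.19 and 34.7 for Cyp2c55, 20.4, 24.3 and 6.09 for Cyp2d12). The B-like cells were far shallower, at medians of 2776, 2864.5 and 3502 UMIs. This comparison therefore does not decide whether the cluster expresses either gene. Cyp4b1 was at 2.94, 0.282 and 8.25 CPM, from 7, 1 and 30 UMIs. Cyp2d26, at 13.9, 13.6 and 20.6, and Cyp2s1, at 31.1, 20.3 and 22.6, varied less.

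Tuft-like cells, the chemosensory cells of the epithelium, had 44.9 CPM of Cyp2c55 in BT mutant and 40.9 in BT WT, from 124 and 91 cells, and the PBS library had 39 such cells, under the minimum of 50. Their Cyp2d12 was at 33.1 and 74.7 CPM and their Cyp2c65 at 22.5 and 5.33.

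In cluster 3, led by Fabp2 and Car1 and left unnamed for its fibroblast markers, Cyp2c55 was at 311 CPM in BT mutant and 87.3 in BT WT, from 274 and 11 UMIs, and Cyp2c65 at 79.5 and 39.7, from 70 and 5. Cyp2d12 was at 80.6 and 119 CPM there.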
